A study of Homo sapiens with 8 samples.

Results

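A set of 8 long non-coding RNAs (lncRNAs) described in carcinomas, MALAT1, NEAT1, H19, GAS5, SNHG1, TUG1, PVT1 and MIR22HG, was followed in SCC25, an established tongue squamous cell carcinoma line, after loss of the transcription factor ETS1. They were taken by symbol, 8 of the 56638 gene rows of each count table, and every symbol had a row in both tables and passed the filter on low counts in both comparisons. RNA sequencing was done on 8 libraries in 4 groups of 2. Cells of siRNA control received non-targeting small interfering RNAs and cells of ETS1 siRNA a pool of siRNAs against ETS1, as a short-term loss. The shCON line carried a non-targeting short hairpin RNA and the shETS1 line a hairpin against ETS1, both delivered by lentivirus and kept under puromycin, as a long-term loss. All groups are the same cell line in the same medium with hydrocortisone. The labels of shETS1 name 1 hairpin construct, so that the effect of that construct and of ETS1 loss cannot be told apart in the shRNA comparison.

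A lncRNA acts as RNA, or by being transcribed, and the group holds several kinds. MALAT1 and NEAT1 are nuclear: MALAT1 collects in nuclear speckles, bodies rich in splicing factors, and NEAT1 is the scaffold of paraspeckles. GAS5 and SNHG1 are hosts of small nucleolar RNAs (snoRNAs), which are cut from their introns, while the spliced remainder is a substrate of nonsense-mediated decay. H19, an imprinted growth-linked gene, and MIR22HG carry the microRNAs miR-675 and miR-22, PVT1 lies beside MYC, and TUG1 is a widely expressed RNA of nucleus and cytoplasm.

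Total counts were 15954616 to 20469763 in the siRNA libraries and 23834078 to 25953213 in the shRNA libraries. ETS1 had 5726 and 3977 counts in siRNA control against 299 and 268 in ETS1 siRNA, and 2069 and 1871 in shCON against 224 and 279 in shETS1. The squamous markers KRT5, KRT14, KRT6A, TP63, DSG3 and SFN had group means of 214 CPM (the count relative to the scaled library size of its table) or more, and PTPRC, CD3E, PECAM1, VWF, PDGFRB, MLANA and PMEL had group means of at most 1.52 CPM. The fibroblast gene DCN was at 2.23 CPM in siRNA control and 4.26 CPM in ETS1 siRNA, but at 67.8 CPM in shCON and 661 CPM in shETS1. In the shRNA table its rise went with the same groups as the changes below, and its part in them was not tested. The tables differed in the RNAs they held: RN7SK, RN7SL1, RN7SL2, RPPH1 and RMRP, which lack a poly(A) tail, took at most 0.00339% of counts in the siRNA libraries, 5.61% and 6.63% in shCON, and 12.3% and 9.64% in shETS1. Reads of mitochondrial genes made up 0% of every siRNA library and 0.508% to 0.820% of the shRNA libraries. Each knockdown was therefore set against the control of its own table, and in any difference between the tables the kind of knockdown and the preparation cannot be told apart. Within the shRNA table the tailless share also differed between shCON and shETS1. A difference in preparation between these 2 groups cannot be told apart from the hairpin.

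The 3′ ends of MALAT1 and NEAT1 are shown because these RNAs are known to end without a conventional poly(A) tail, in an encoded A-rich tract that folds back onto U-rich stretches and shields the end. Capitals mark the A-rich tract and the T-rich stretches in the DNA of GRCh37, MALAT1 at chr11:65273469-65273587 and the long isoform of NEAT1 at chr11:65212901-65213011, both on the plus strand.
MALAT1: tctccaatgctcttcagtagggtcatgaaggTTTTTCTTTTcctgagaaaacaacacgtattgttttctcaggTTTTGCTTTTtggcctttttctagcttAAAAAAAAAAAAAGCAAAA
NEAT1: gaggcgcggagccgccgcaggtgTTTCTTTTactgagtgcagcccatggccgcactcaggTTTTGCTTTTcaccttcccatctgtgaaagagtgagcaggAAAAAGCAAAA
Both stretches hold 2 T-rich motifs, and the encoded tract is 19 bases with a run of 13 A in MALAT1 and 11 bases with a run of 5 A in NEAT1.

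The mature microRNAs inside the hosts that changed are given next (RefSeq, GRCh38.p14), with the seed, bases 2 to 8, in capitals. They were not themselves measured, since MIR22 and MIR675 have no row in the tables.
hsa-miR-22-3p: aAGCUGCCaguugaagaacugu
hsa-miR-22-5p: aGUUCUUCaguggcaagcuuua
hsa-miR-675-5p: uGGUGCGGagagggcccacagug
hsa-miR-675-3p: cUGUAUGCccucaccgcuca
No 2 of the 4 seeds were alike.

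TUG1 was the member that fell after both knockdowns, and its promoter window, 250 bases before to 50 after the start site, is shown with that of H19, which had the largest change of the 8 after shRNA (RefSeq, GRCh38.p14). ETS proteins are known to bind a GGAA core. The windows were searched on both strands for CAGGAA (or TTCCTG) and CCGGAA (or TTCCGG), and capitals mark the matches.
TUG1, chr22:30969015-30969314, plus strand: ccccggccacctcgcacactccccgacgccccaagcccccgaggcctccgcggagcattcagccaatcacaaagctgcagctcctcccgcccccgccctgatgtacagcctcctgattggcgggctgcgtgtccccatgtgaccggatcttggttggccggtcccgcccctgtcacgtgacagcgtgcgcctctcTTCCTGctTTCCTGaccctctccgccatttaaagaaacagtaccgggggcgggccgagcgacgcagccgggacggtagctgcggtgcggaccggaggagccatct
H19, chr11:2001217-2001516, minus strand: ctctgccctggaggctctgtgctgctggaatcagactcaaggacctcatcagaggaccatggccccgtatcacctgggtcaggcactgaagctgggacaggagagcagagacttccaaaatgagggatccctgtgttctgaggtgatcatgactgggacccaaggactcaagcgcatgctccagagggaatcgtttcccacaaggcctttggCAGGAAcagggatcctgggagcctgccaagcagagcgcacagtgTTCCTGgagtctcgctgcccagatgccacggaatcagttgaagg
TUG1 held 2 copies of CAGGAA, both as TTCCTG, starting at -55 and -47 from the start site, and H19 held 2, at -38 and 6. GAS5 held 1 at -183, the second of 2 MALAT1 windows held 1 CCGGAA at -57, and the windows of SNHG1 and MIR22HG held neither. Of 35116 promoters in the table, 28.4% held CAGGAA, 5.39% held at least 2 copies, and 17.2% held CCGGAA. These matches are a description of the letters. NEAT1 had no entry.

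TUG1 also held 4 copies of the heptamer ACCTCAA, whose carriers were lower after siRNA in an earlier analysis of these same libraries, so that the choice of heptamer is not independent of the siRNA values. The sites are given with 10 bases to each side (GRCh37, plus strand), and capitals mark the heptamer.
chr22:31366866-31366892: ctactgcggaACCTCAAaatcagtaga
chr22:31367317-31367343: atccggatgtACCTCAAaagacttaag
chr22:31373405-31373431: cctaaacagaACCTCAAgtctgattga
chr22:31374637-31374663: taggatgaaaACCTCAAactaacaggg

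Of the 8 lncRNAs, TUG1 was called after siRNA, and 5 were called after shRNA: H19, MIR22HG, NEAT1 and GAS5 rose and TUG1 fell. A call is a Benjamini-Hochberg adjusted p under 0.1 in the quasi-likelihood test of edgeR over all genes tested. The 1 called member after siRNA stands beside a background of 3.41% of 14742 genes called, 2.27% lower and 1.13% higher, and the 5 after shRNA beside 60.6% of 16481 genes called, 29.7% higher and 30.9% lower. A count of 5 of 8 is near that background and says little of the lncRNAs as a group. The median log2 fold change of the 8 was -0.16 after siRNA and 0.29 after shRNA, beside 0.0018 and 0.00066 over all genes. After siRNA 2 of the 8, TUG1 and H19, had an unadjusted p under 0.05, and DESeq2 also called 1.

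**Figure D1:**
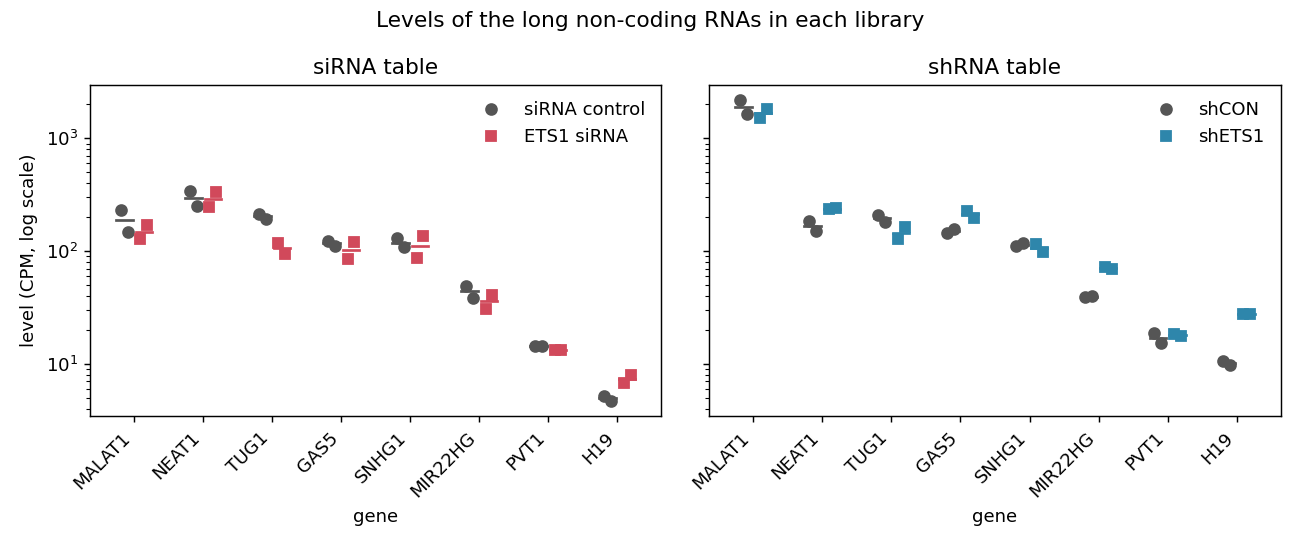
Level in each library as CPM on a log axis for the 8 lncRNAs, with the siRNA table on the left and the shRNA table on the right. Points are libraries (2 a group) and the short lines are group means. The 2 TUG1 points of ETS1 siRNA, at 118 and 94.6 CPM, lie below both controls, and MALAT1 is near 190 CPM in siRNA control but 1909 CPM in shCON.

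**Figure D2:**
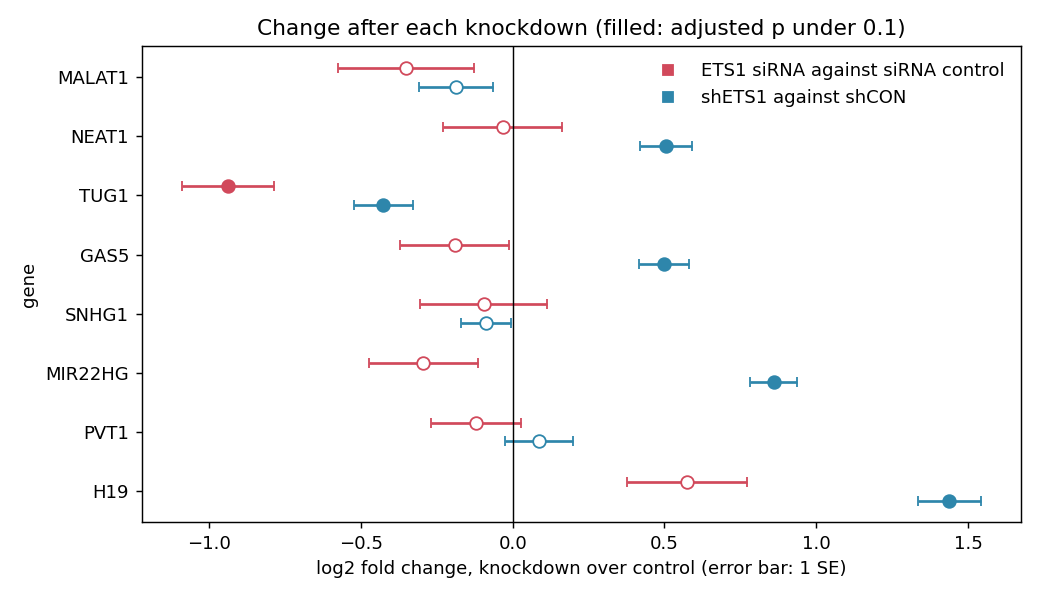
Log2 fold change of each lncRNA (knockdown over control) with 1 standard error, for ETS1 siRNA and for shETS1. Filled points passed an adjusted p under 0.1, and TUG1 is the gene with both points filled, at -0.94 and -0.43.

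TUG1 fell after both knockdowns. Its level was 214 and 194 CPM in siRNA control and 118 and 94.6 CPM in ETS1 siRNA, where each knockdown library was well below each control. The log2 fold change was -0.94 (SE 0.15, edgeR adjusted p 0.031, 0.522 of the control level), and 2.83% of genes tested had a larger change in either direction. In the shRNA table it was at 208 and 182 CPM in shCON and at 128 and 162 CPM in shETS1, again with no overlap, a log2 fold change of -0.43 (SE 0.098, edgeR adjusted p 0.0013). The shRNA change was an ordinary one for that table, where 47.1% of genes had a larger one. Lower calls in both comparisons were made for 170 of 14038 genes tested in both (1.21%), TUG1 among them. The difference between the effects, 0.49 on the log2 scale (SE 0.20), did not pass the threshold (edgeR adjusted p 0.101), but did in 7 of 17 alternatives, DESeq2 among them (adjusted p 0.072, with a range of 0.012 to 0.362 over the 17). The siRNA call was lost without siRNA control replicate 1, with a log2 fold change of -0.87 and an adjusted p of 0.146. TUG1 lies at chr22:31365231-31375381 on the plus strand (GRCh37, as for the gene positions below), where the annotation used types it as protein coding, and 2 lncRNAs overlap it on the opposite strand.

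In its longest transcript, of 7474 bases, the 4 heptamers shown above start at bases 1626, 2077, 5508 and 6740. NEAT1 held 2 copies, GAS5 and PVT1 1 each, and MALAT1, H19, SNHG1 and MIR22HG 0, on the sense strand of the longest transcript. Among 12735 matched genes tested after siRNA, 47 (0.369%) held 4 or more copies. OIP5-AS1, a cytoplasmic lncRNA that binds microRNAs, also held 4, in 8881 bases. It was the other lncRNA of the lists called after siRNA, at 137 and 120 CPM in siRNA control and 58.5 and 51.6 CPM in ETS1 siRNA (log2 fold change -1.22, SE 0.14, edgeR adjusted p 0.011). Unlike TUG1, it was not called after shRNA (-0.06, adjusted p 0.55), and the difference between its effects was called (1.15, adjusted p 0.00039). DLEU1, a further lncRNA of the lists, held 0 copies in 5265 bases. It was also lower after siRNA, at 12.4 to 12.6 CPM in siRNA control and 7.10 to 10.4 CPM in ETS1 siRNA, but was not called.

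Over all genes, the median log2 fold change after siRNA was 0.03 for the 9000 with 0 copies, -0.07 for 2860 with 1, -0.12 for 682 with 2, -0.16 for 146 with 3 and -0.29 for 47 with 4 or more. Length moved along with copies, the median longest transcript going from 3387 bases with 0 to 11501 with 4 or more. Within transcripts of 6000 to 9000 bases, a range that holds TUG1 and OIP5-AS1, the medians were -0.10, -0.13, -0.17, -0.20 and -0.28, the last over 8 genes. Over all lengths, the share of genes called lower was 1.61%, 3.43%, 7.33%, 6.16% and 6.38% from 0 to 4 or more copies, with no steady rise beyond 2. TUG1 and OIP5-AS1 were lower than the last median, but both are themselves among its 8 genes. KCNQ1OT1 with 8 copies in 91667 bases gave no usable value for a reason described below. Because the heptamer was chosen with these same siRNA values known, the medians by copies are a description and no independent test. The part of the heptamer in the fall of TUG1 was not tested.

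**Figure D3:**
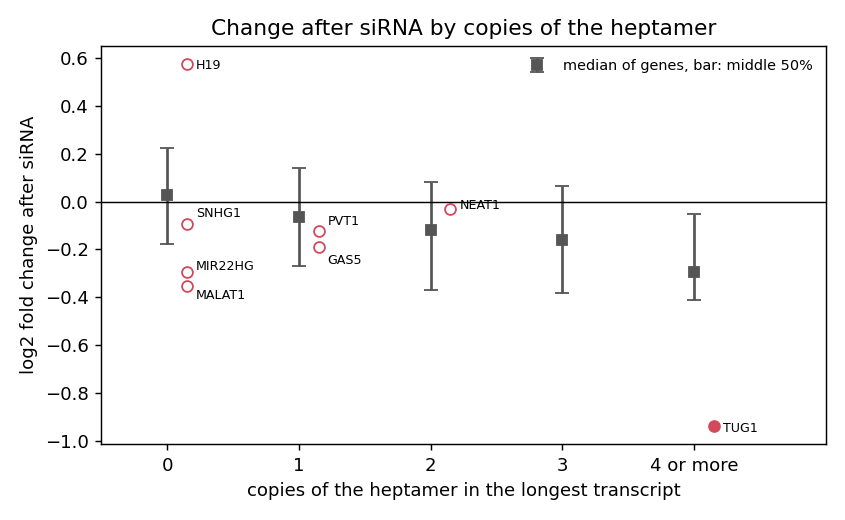
Log2 fold change after siRNA against copies of ACCTCAA in the longest transcript. Squares are medians over genes with bars for the middle 50%, going from 0.03 at 0 copies to -0.29 at 4 or more, and circles are the lncRNAs, filled where called (TUG1 alone, at -0.94). The heptamer was chosen with these siRNA values known.

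Of the 8 lncRNAs, H19 was the lowest in CPM in both controls and had the largest rise after shRNA. Its level was 10.7 and 9.87 CPM in shCON against 28.0 and 27.7 CPM in shETS1, so that the replicates nearly coincided and the groups lay far apart. It rose 2.71-fold (log2 fold change 1.44, SE 0.10, edgeR adjusted p 3.8e-09), and 6.92% of genes changed more. After siRNA the level was 5.24 and 4.68 CPM in the control and 6.81 and 7.98 CPM in ETS1 siRNA. The groups did not overlap there either, but the log2 fold change of 0.58 (SE 0.20) rests on 75 to 162 counts a library and did not pass (edgeR adjusted p 0.187). The shRNA effect was larger than the siRNA effect by 0.84 (SE 0.20, edgeR adjusted p 0.0097). H19 lies at chr11:2016396-2025782 on the minus strand.

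MIR22HG rose after shRNA, from 38.9 and 39.8 CPM in shCON to 72.9 and 70.1 CPM in shETS1. The groups were clearly apart, at 1.81-fold (log2 fold change 0.86, SE 0.078, edgeR adjusted p 5.9e-08). In the siRNA table it was at 49.2 and 38.6 CPM in the control and at 30.4 and 41.2 CPM in ETS1 siRNA, where the groups overlapped (-0.29, SE 0.18, adjusted p 0.42). The difference between the effects, 1.13 (SE 0.21, edgeR adjusted p 0.0030), was the largest of the 8. The span of MIR22HG (chr17:1614741-1620468, minus strand) overlaps that of WDR81 on the opposite strand over 652 bases, introns included. WDR81, at 519 to 758 counts in the shRNA libraries, rose by 0.42. Since the strand setting of the counting is not given in the sources used here, reads of the overlap may belong to either gene.

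NEAT1 rose after shRNA by 0.51 on the log2 scale (SE 0.087, edgeR adjusted p 9.3e-05), from 184 and 150 CPM in shCON to 235 and 239 CPM in shETS1. After siRNA its level was 342 and 251 CPM in the control and 244 and 336 CPM in ETS1 siRNA, with the groups overlapping almost wholly (-0.03, SE 0.20, adjusted p 0.95). The difference between the effects was 0.52 (SE 0.25) and did not pass (adjusted p 0.155), though it did in 5 of 17 alternatives. NEAT1 (chr11:65190245-65213011, plus strand) has a short polyadenylated and a long isoform, which a count per gene cannot separate.

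GAS5 rose by a like amount after shRNA, 0.50 on the log2 scale (SE 0.081, edgeR adjusted p 5.2e-05), from 145 and 156 CPM to 229 and 198 CPM. After siRNA it was at 124 and 112 CPM in the control and 85.2 and 121 CPM in ETS1 siRNA, and the groups overlapped (-0.19, SE 0.18, adjusted p 0.61). Its effects differed by 0.67 (SE 0.21, edgeR adjusted p 0.038), a call lost without siRNA control replicate 1 (adjusted p 0.129), without shCON replicate 1 (0.135) or without shETS1 replicate 1 (0.135). GAS5 (chr1:173827697-173838020, minus strand) overlaps GAS5-AS1 and ZBTB37, among others, on the opposite strand. After shRNA ZBTB37 rose too (log2 fold change 0.55), and its share of the GAS5 reads was not tested.

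MALAT1 (chr11:65265111-65275544, plus strand), SNHG1 (chr11:62619450-62623425, minus strand) and PVT1, on chromosome 8, were called after neither knockdown. MALAT1 was at 232 and 148 CPM in siRNA control, 128 and 170 CPM in ETS1 siRNA, 2188 and 1630 CPM in shCON, and 1514 and 1839 CPM in shETS1. Its replicates differed so widely that the groups overlapped in both tables, with log2 fold changes of -0.35 (SE 0.22, edgeR adjusted p 0.44) and -0.19 (SE 0.12, adjusted p 0.20). The second value hung on single libraries: it was 0.03 without shCON replicate 1, and it was called without shCON replicate 2 (-0.38, edgeR adjusted p 0.0053) and without shETS1 replicate 2 (-0.34, edgeR adjusted p 0.0014). SNHG1, the other snoRNA host, was at 129 and 108 CPM, 87.2 and 135 CPM, 110 and 118 CPM, and 116 and 98.4 CPM in siRNA control, ETS1 siRNA, shCON and shETS1. The groups of SNHG1 overlapped in both tables (-0.10 and -0.09, edgeR adjusted p 0.85 and 0.40). PVT1 stayed between 13.3 and 18.7 CPM in all 8 libraries, with log2 fold changes of -0.12 and 0.09 (adjusted p 0.71 and 0.54). The 2 ETS1 siRNA libraries of PVT1 were below both controls, by little more than 1 CPM. Non-overlap by itself was common. After siRNA it held for 51.9% of genes, 25.7% higher and 26.2% lower, beside H19 higher and TUG1 and PVT1 lower. After shRNA it held for 76.6% of genes, 38.1% higher and 38.6% lower, beside the 5 called lncRNAs.

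The difference between the knockdowns was thus called for H19, GAS5 and MIR22HG, each with the higher value after shRNA, beside 34.8% of 17190 genes called, 15.1% in that direction and 19.7% in the other. In bulk RNA a change in every cell and a change in the mix of cells cannot be told apart. With the tailless RNAs and mitochondrial genes left out before scaling, the same 5 lncRNAs were called after shRNA and TUG1 after siRNA. Leaving them out changes the scaling but does not remove a difference in preparation.

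MALAT1 was the member whose level separated the tables. Its mean of 1909 ± 394 CPM (SD, n = 2) in shCON was 10.0 times the 190 ± 59.7 CPM (SD, n = 2) of siRNA control, and 0.470% of the 14038 genes tested in both had a higher ratio. The central 95% of genes lay between 0.206 and 3.40 times, and the other 7 lncRNAs were inside that range, from 0.563 for NEAT1 to 2.07 for H19. The NEAT1 ratio was an ordinary one, with 81.9% of genes higher. An encoded A-rich end belongs to the long isoform of NEAT1 only, and its count mixes both isoforms. Among the hosts, SNHG3 was also far apart, at 43.9 CPM in siRNA control and 746 CPM in shCON, as was MIR17HG at 2.38 and 23.1 CPM. LINC00478 (0.169 and 1.33 CPM), SNHG16 (36.5 and 160 CPM) and MIR205HG (137 and 548 CPM) were less so. Other hosts were lower in shCON, MIR503HG at 12.7 and 4.21 CPM among them. Ratios between tables were not tested, and cell state, preparation and counting cannot be told apart in them.

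**Figure D4:**
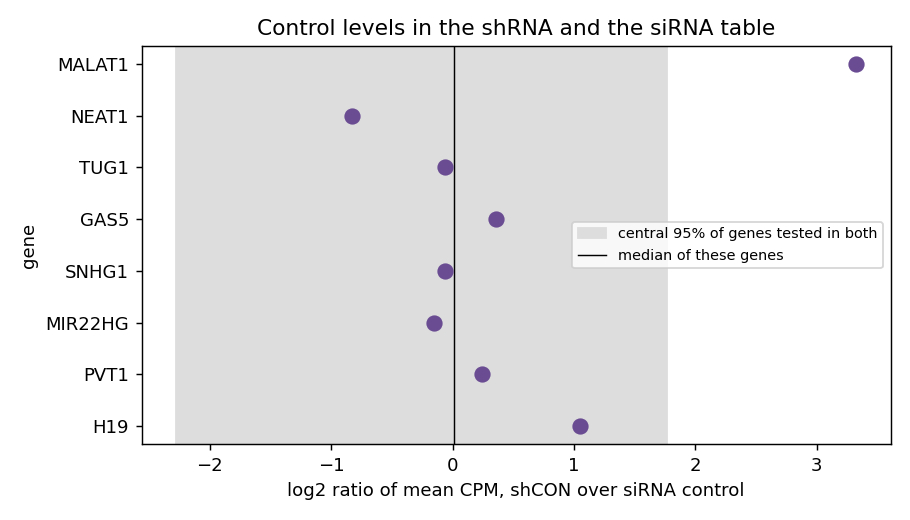
Log2 ratio of mean CPM, shCON over siRNA control, for each lncRNA. The grey band holds the central 95% of 14038 genes and the line is their median; MALAT1 at 3.33 lies outside the band and the others lie inside.

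Per kilobase of merged exon, the order in siRNA control was SNHG1 at 29.9 ± 3.79, GAS5 at 23.9 ± 1.68, TUG1 at 20.1 ± 1.40, MALAT1 at 18.2 ± 5.72, MIR22HG at 14.1 ± 2.41, NEAT1 at 13.0 ± 2.85, H19 at 1.43 ± 0.115 and PVT1 at 0.568 ± 0.0028 CPM per kilobase (SD, n = 2 each). TUG1 and MALAT1, MALAT1 and MIR22HG, and MIR22HG and NEAT1 overlapped between their libraries and have no settled order. In shCON MALAT1 led at 183 ± 37.8 CPM per kilobase, followed by GAS5 at 30.6 and SNHG1 at 28.6, which overlapped, then TUG1 at 19.2, MIR22HG at 12.7, NEAT1 at 7.34, H19 at 2.97 and PVT1 at 0.672. TUG1 went from the third place in siRNA control to the sixth in ETS1 siRNA, at 10.5 ± 1.64, where its libraries overlapped those of MIR22HG and NEAT1. MIR22HG passed TUG1 in shETS1, at 23.0 ± 0.629 against 14.3 ± 2.42. Length matters for this order: PVT1 has 25431 bases of merged exon but 2450 in its longest transcript, by which it stood at 5.90 in siRNA control, above H19 at 2.07. NEAT1 was divided by 22767 bases, which include its long isoform, and its place by the short isoform was not computed.

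Replicates in the siRNA table shared a pattern that bears on these comparisons. For 6 of the 8 lncRNAs, all but TUG1 and PVT1, siRNA control replicate 1 was above replicate 2 while ETS1 siRNA replicate 2 was above replicate 1, which held for 29% of genes tested. The ratios were 1.57 and 1.32 for MALAT1, 1.37 and 1.37 for NEAT1, 1.20 and 1.55 for SNHG1, and 1.12 and 1.17 for H19. KCNQ1OT1, a long unspliced imprinted RNA named here after its values were seen, showed it most plainly, with 5900 and 74 counts in siRNA control and 72 and 3298 in ETS1 siRNA. In the shRNA libraries KCNQ1OT1 had 998 to 1291 counts. The 6 lncRNAs differed far less between replicates than KCNQ1OT1. Differences within the groups widen the error of the siRNA values, that of TUG1 included, and their cause was not tested. In the shRNA libraries MALAT1 (1.34 and 1.21), NEAT1 (1.23 and 1.01) and TUG1 (1.15 and 1.27) had the same pattern, and the other lncRNAs did not.

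The snoRNA hosts, GAS5 and SNHG1 included, were then counted. Of 19 hosts tested, 12 rose and 2 fell after shRNA, with a median log2 fold change of 0.45, beside 29.7% of all genes called higher, 30.9% called lower and a median of 0.00066. EPB41L4A-AS1 rose by 0.91, SNHG5 by 0.77, SNHG14 by 1.23 and ZFAS1 by 0.56 on the log2 scale, while SNHG17 fell by 0.87 (edgeR adjusted p 1.5e-05 or less for each). Of the same hosts, 0 were called after siRNA by edgeR, 0 had an unadjusted p under 0.05, DESeq2 called 0, and the median was -0.06. The 5 tailless RNAs also rose after shRNA, by 0.82 to 1.21 on the log2 scale, and their relation to the host counts was not tested. The snoRNA rows were looked up for GAS5 and SNHG1 alone, and were too shallow to follow. Of those in GAS5, SNORD78 passed the filter after shRNA, at 30 and 38 counts in shCON and 19 and 20 in shETS1 (-0.71, called by edgeR but not by DESeq2), against the rise of its host.

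**Figure D5:**
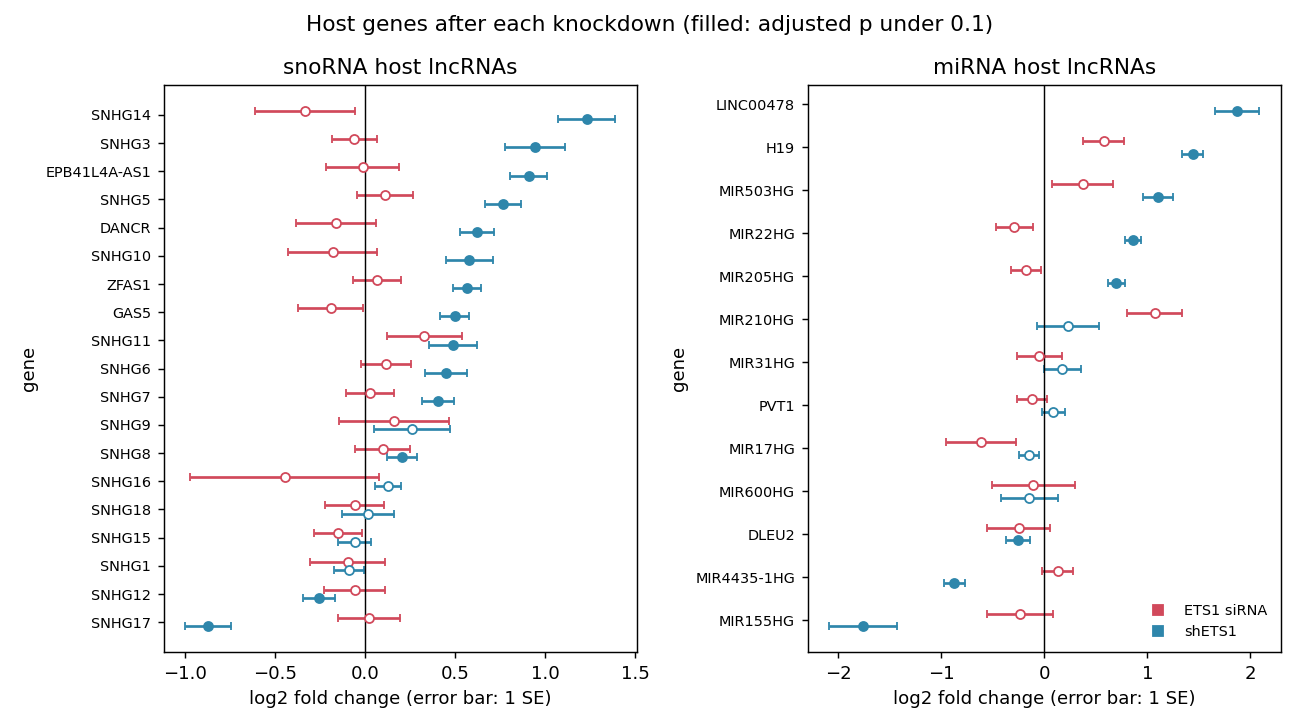
Log2 fold change with 1 standard error for snoRNA host (left) and microRNA host (right) lncRNAs, after ETS1 siRNA and shETS1, filled where called. On the left 12 shETS1 points are filled to the right of 0 and 2 to the left, and 0 siRNA points are filled in either panel.

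Among 13 microRNA hosts tested after shRNA, H19 and MIR22HG included, 5 rose and 3 fell, a count near the 60.6% of all genes called. LINC00478, host of the miR-99a cluster, rose by 1.87 and MIR205HG by 0.70, while MIR4435-1HG fell by 0.87 on the log2 scale (edgeR adjusted p 1.5e-06 or less for each). LINC00478 rose from a low level, 1.33 CPM in shCON. After siRNA 0 of 12 were called, with 2 at an unadjusted p under 0.05 and 0 called by DESeq2. Of other lncRNAs described in carcinomas, 6 of 24 rose and 7 fell after shRNA, also near that background, with a median of 0.00034. UCA1, linked to bladder carcinoma (-1.17), AFAP1-AS1 (-0.93) and FOXD2-AS1 (-2.40) fell, and LINC00511 (0.59) and TP53TG1 (0.78) rose. The FOXD2-AS1 value rests on low levels, 107 counts over both shCON libraries (1.31 and 2.90 CPM) and 19 over both shETS1 libraries. After siRNA 1 of 22 was called, OIP5-AS1, with 8 at an unadjusted p under 0.05 and 2 called by DESeq2.

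Of the proteins that work with the lncRNAs, more were called lower than higher after shRNA in each of 4 lists. Of 12 paraspeckle proteins, the partners of NEAT1, 9 fell and 0 rose (median -0.44), among them HNRNPH3 (-1.73), HNRNPM (-1.05), SMARCA4 (-1.31) and RBM14 (-0.83), while NEAT1 itself rose. NONO, a core paraspeckle protein, had a value of 0.01 and was not called. Of 11 nuclear speckle proteins, which share the body of MALAT1, 8 fell and 1 rose (median -0.27), with PNN at -0.48, SRSF7 at -0.42 and SRSF5 at 0.21. Of 14 factors of nonsense-mediated decay, 6 fell, UPF1 (-0.48) among them, and 2 rose, SMG8 (0.37) and UPF2 (0.28), with a median of -0.21. Of 8 core proteins of snoRNA particles, DKC1 (-0.59), GAR1 (-1.03), FBL (-0.42) and NHP2L1 (-0.40) fell and NOP10 (0.36) rose, with a median of -0.24. After siRNA 0 members of these 4 lists were called by edgeR or DESeq2, and 1, in the nuclear speckle list, had an unadjusted p under 0.05. Falls were called for 30.9% of all genes after shRNA.

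Genes next to the lncRNAs went both ways after shRNA. Of 14 neighbours, 4 rose and 4 fell after shRNA, near the 60.6% of all genes called, and 0 were called after siRNA (3 at an unadjusted p under 0.05, 1 by DESeq2). MYC, beside PVT1, fell by 0.75 on the log2 scale while PVT1 was not called. SMTN and MORC2, near TUG1, fell with it (-0.54 and -0.44). IGF2, the imprinted partner of H19, had values of 0.11 after siRNA and -0.54 after shRNA, neither called, and stood at 46.2 CPM in siRNA control and 1.00 CPM in shCON. Of the genes around NEAT1 and MALAT1, FRMD8 rose by 0.26, and LTBP3 (-0.33) was not called. TLCD2, near MIR22HG, rose by 0.83 from a level of 1.23 CPM, and MRPL23, SLC3A2 and WDR74 were not called (-0.05, -0.03 and 0.13).

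The genes most like each lncRNA were sought over the 8 libraries, among 10049 genes with at least 5 CPM in both tables, by Pearson's r of log2 CPM centred within each table. For TUG1 they were HOOK3 and RGMB (0.993 each), both called lower after both knockdowns. H19 was most like C7orf60 and MFGE8 (0.996 each), and MIR22HG like TSPYL1 (0.997) and LINC00667 (0.996), all of which rose after shRNA. NEAT1 went with TMEM218 (0.980) and ZNF830 (0.965), GAS5 with ETFA (0.989) and THOC1 (0.986), and SNHG1 with YAF2 (0.985) and SRSF2 (0.981). MALAT1 had a looser likeness, to RCBTB1 (0.946) and SEC24A (0.941), and PVT1 the loosest, to C10orf88 (0.868) and ZNF678 (0.842). The 8 points share their libraries, their scaling and the group differences, and each r is the highest of many, so these values are a description.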

How the data were processed

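The authors prepared TruSeq libraries from total RNA of SCC25 cells, sequenced single-end reads of 50 bases and counted those mapped to GRCh37 in Ensembl genes. The tools were TopHat2 2.1.1, Bowtie2 2.2.6 and featureCounts 1.5.0 (versions from the submitters' processing notes). The deposited values are counts of reads for each gene symbol, not normalized, in 1 table for each knockdown. The use of strand and of reads with several matches is not given in the sources used here. Every per-sample column was used. The columns of shETS1 leave out the hairpin number that the sample titles carry.

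The libraries of a knockdown were tested against those of its control, 2 against 2, with edgeR 4.0.16 (R 4.3.3). The two-sided quasi-likelihood test was used with TMM scaling and filterByExpr, fitted over the whole table, with Benjamini-Hochberg adjustment over all genes tested and calls at an adjusted p under 0.1. The difference between knockdowns was tested in 1 fit of all 8 libraries. The authors used DESeq2 at the same threshold, and DESeq2 1.42.0 was an alternative here. The study's filter on protein-coding genes was not used, since it removes most of these RNAs. Standard errors were derived from each fold change and its F value. CPM is the count relative to the scaled library size, computed within each table. Common dispersion was 0.0192 in the siRNA table and 0.00402 in the shRNA table, which makes siRNA values less precise. In all 4 groups the 2 replicates were further apart than sampling noise allows (chi-square per degree of freedom 7.00 to 25.7). The study calls the siRNA samples biological replicates. Nothing says whether the shRNA replicates were separate cultures, so that their p-values measure the spread between these samples.

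The lncRNAs and the gene lists were chosen with earlier results of these data known, and the snoRNA, microRNA and heptamer checks were added later. Named genes are the 8 lncRNAs, ETS1, the tailless RNAs, the 2 genes most like each lncRNA, up to 5 called members of each list by adjusted p and every listed neighbour of at least 1 CPM. A few further list members are named beside them, and some genes that the rule names are not reported here. Lists held snoRNA and microRNA hosts, other carcinoma lncRNAs, paraspeckle, nuclear speckle, nonsense-mediated decay and snoRNA particle proteins, neighbours and tailless RNAs. The 5 tailless RNAs all rose after shRNA (0.82 to 1.21 on the log2 scale), and 0 of the 3 tested after siRNA were called by edgeR or DESeq2 (0 at an unadjusted p under 0.05). Positions and transcripts are from GENCODE lifted to GRCh37, and promoters and microRNAs from RefSeq tables of GRCh38.p14, in which promoters were read for 6 of the 8. The tests were tried on simulated counts with known 2-fold changes in 197 and 189 genes and 1 dispersion shared by all genes. Of these changes, 77.2% were recovered in the siRNA setting and 84.1% in the shRNA setting. The called shRNA changes of NEAT1, GAS5, TUG1 and MIR22HG were smaller than 2-fold, and recovery at their size was not simulated. False calls made up 13.1% and 5.92% of calls, so that the siRNA setting exceeded the threshold of 0.1. Alternatives were other scalings, filters and thresholds, DESeq2, a replicate block, all 8 libraries in 1 fit, and each library left out.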

Additional observations from a re-analysis of the deposited data

Results flagged for a closer look

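The effect of the hairpin differed from that of the siRNA, by the test of the difference itself, for H19 (0.84 on the log2 scale, SE 0.20, edgeR adjusted p 0.0097), MIR22HG (1.13, SE 0.21, edgeR adjusted p 0.0030) and GAS5 (0.67, SE 0.21, edgeR adjusted p 0.038). H19 rose after shRNA, and its siRNA value of 0.58 did not pass (edgeR adjusted p 0.187). MIR22HG and GAS5 were higher in both shETS1 libraries than in shCON, while their siRNA groups overlapped. The kind of knockdown and the preparation of the tables cannot be told apart in these differences.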

How the results depend on the processing

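Across the alternatives, 313 of the values of single lncRNAs kept their direction and their side of the threshold, 21 passed it newly, 4 no longer passed it and 22 changed sign, the last all among uncalled values. The calls of NEAT1, H19, GAS5, TUG1 and MIR22HG after shRNA held in 14 of 14 alternatives, that of TUG1 after siRNA in 13 of 14 (log2 fold changes -1.10 to -0.79), and the differences between knockdowns of H19 and MIR22HG in 17 of 17. LncRNAs called after siRNA numbered 2 with all 8 libraries in 1 fit, where 2166 of 17190 genes were called in place of 502 of 14742, and 0 to 1 with a library left out, where 72 to 1478 genes were called, 0 and 72 being without siRNA control replicate 1. After shRNA 5 to 6 were called with a library left out. The difference between knockdowns was called for 5 without a filter on low counts, 5 with DESeq2 and 2 to 4 with a library left out. With a library left out, uncalled log2 fold changes that turned ranged after siRNA from -0.64 to 0.0094 for MALAT1, -0.28 to 0.21 for NEAT1, -0.47 to 0.044 for GAS5 and -0.45 to 0.19 for SNHG1, and after shRNA from -0.38 to 0.033 for MALAT1, -0.22 to 0.025 for SNHG1 and -0.044 to 0.23 for PVT1. For the difference they ranged from -0.23 to 0.42 for MALAT1 and from -0.30 to 0.33 for SNHG1, whose value was also 0.0031 without tailless and mitochondrial RNAs and 0.023 with at least 10 counts in every library. PVT1 after shRNA was -0.040 with library size only, a scaling that moved the median of all genes to -0.12. The cause of these changes was not tested. In the order of levels, 4, 7, 2 and 2 lncRNAs changed place in siRNA control, ETS1 siRNA, shCON and shETS1 with the longest transcript as the length, and 8, 8, 7 and 5 with CPM alone.

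Replicate numbers did not pair the samples (correlation of deviations -0.54 in the siRNA and -0.24 in the shRNA libraries), and with the number as a replicate block 1, 5 and 3 lncRNAs were called after siRNA, after shRNA and for the difference, with SNHG1 at 0.012 for the difference, while calls over all genes went from 502 to 97, from 9988 to 9173 and from 5974 to 4264. A crossed pairing, chosen after seeing the data, called 3, 6 and 5 lncRNAs, and 3238, 10923 and 7467 of all genes, with SNHG1 at 0.0086 for the difference.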
